A study of Bos taurus with 9 samples.

Results

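The distal end of bovine chromosome 18, from position 57 Mb (assembly UMD3.1.1) to the last peak near 66 Mb, held 843 of the 130580 peaks in the 8 ChIP-seq peak lists of this series, or 0.646%, on 0.338% of the genome. A peak was counted as a member when it started at or beyond 57 Mb, and the other 5278 peaks of chromosome 18 served as the comparison. The lists came from rumen epithelial tissue of calves, collected either before or after weaning, the switch from milk to solid feed that the rumen, the first stomach chamber, adapts to. There was 1 library for each of 4 targets at each time point. The active marks were H3K9ac and H3K27ac, acetylated histone H3 at promoters and enhancers, and RNA polymerase II (RNA pol II), the enzyme that transcribes protein-coding genes. The fourth target was H3K9me3, trimethylated histone H3 of repressed chromatin. The labels give neither the age nor the number of the animals, nor whether tissue was pooled. The tissue label was not checked against marker genes here, since the lists hold peak positions and no gene names.

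Zinc finger genes with a KRAB domain form a large family of DNA-binding repressors that sit in tandem clusters. Their proteins bind transposable elements and recruit TRIM28, a scaffold that brings in the H3K9 methyltransferase SETDB1. The clusters themselves are known to carry H3K9me3 in many cell types, over the exons that encode the fingers.

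The description of the stretch as rich in zinc finger genes was checked by gene order alone, since gene positions on the build of the lists were not used here. In the RefSeq gene table of ARS-UCD2.0, a different assembly, 342 protein-coding genes follow on chromosome 18 from the first kallikrein gene (KLK, secreted serine proteases) to the chromosome end. By symbol, 49 of them (14.3%) were zinc finger genes, against 53 of the 890 genes before that point (5.96%). A further 168 of the 342 had no symbol, against 81 of the 890, so the zinc finger counts are the named genes only. The order ran from KLK1 over SIGLEC10 (a sialic acid receptor), ZNF175 and ZNF350 to vomeronasal receptors, then over ZNF677 and ZNF331 to NLRP12. It went on over EPN1, RPL28 and RPS9, the last 2 encoding ribosomal proteins, and over NLRP5, PEG3 (an imprinted zinc finger gene) and ZNF274 to TRIM28 and MZF1 near the end. Where 57 Mb of UMD3.1.1 falls in this order was not determined, so no gene is assigned to any peak.

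H3K9me3 was several times denser at the distal end than on the rest of the chromosome, whereas the active marks were not. H3K9me3 had 54 distal peaks before weaning and 56 on the rest of chromosome 18, that is 6 and 0.982 peaks per Mb. The density ratio was 6.11 (95% exact binomial interval 4.13 to 9.05). After weaning it had 160 and 118 peaks, or 17.8 and 2.07 per Mb, a ratio of 8.59 (6.73 to 11). The distal end thus held 49.1% of the H3K9me3 peaks of chromosome 18 before weaning (95% Wilson interval 39.9 to 58.3) and 57.6% after weaning (51.7 to 63.2). With 1 library per group there is no replicate error, so no test was made. All intervals given here reflect counting error alone. They treat peaks as independent, which neighbouring peaks need not be. By length, H3K9me3 covered 0.159% of the distal end before and 0.470% after weaning, against 0.0290% and 0.0639% of the rest of the chromosome.

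H3K27ac was thinner at the distal end than on the rest of the chromosome. It had 338 distal peaks before weaning against 2985, a density ratio of 0.718 (0.639 to 0.803), and 169 after weaning against 1310, a ratio of 0.818 (0.692 to 0.960). H3K9ac had 96 distal peaks before weaning (ratio 0.964, 0.770 to 1.20) and 15 after weaning (1.23, 0.659 to 2.17), so no difference in density from the rest of the chromosome was detectable. With the boundary at 56 Mb the ratio before weaning was 1.28 (1.05 to 1.54), and against the genome outside the distal end the ratios were 1.98 (1.60 to 2.42) and 2.09 (1.17 to 3.46). The ratio after weaning was 0.787 (0.348 to 1.57) with the boundary at 58 Mb and 0.872 (0.402 to 1.69) without the bin with most peaks. RNA pol II had 9 distal peaks before weaning (0.671, 0.297 to 1.34) and 2 after weaning (0.792, 0.0884 to 3.37), too few to show one. Its ratio before weaning was 1.61 (0.942 to 2.65) with the boundary at 56 Mb and 1.30 (0.591 to 2.46) against the genome. The comparison decides the direction for H3K27ac. With the boundary moved to 56 Mb its ratios were 0.939 and 0.984. Chromosome 18 is rich in this mark, and against all other sequence in the genome the distal ratio was 1.35 before and 1.64 after weaning. For H3K9me3 the same genome-wide ratios were 6.75 and 11.8.

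**Figure D1:**
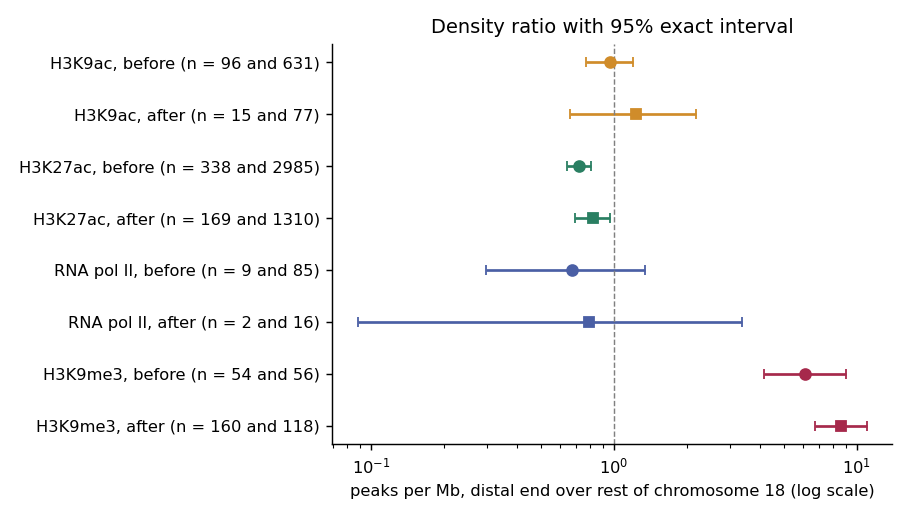
Density ratio of each list, that is peaks per Mb at the distal end over peaks per Mb on the rest of chromosome 18, on a log axis. Circles are before and squares after weaning, bars are 95% exact intervals for counting error, and n gives the distal and the other peaks. Both H3K9me3 points (6.11 and 8.59) lie above all 6 points of the active marks, which range from 0.671 to 1.23.

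Set among other parts of the genome, the distal end was among the richest in H3K9me3 and less so in the active marks. The chromosomes were divided from their ends inwards into 282 windows of 18 bins of 500 kb each, the size of the distal end. By H3K9me3 peaks after weaning the distal end ranked 2 of the 282, behind a window on chromosome 17 with 466 peaks, and the median window had 8. Before weaning it ranked 6, and the median window had 3. By H3K27ac it ranked 69 before and 50 after weaning, by H3K9ac 31 and 29, and by RNA pol II 57 and 48. By the share of H3K9me3 among all peaks of a window, 13 windows lay above it at each time point. These ranks are a description, since the windows differ in gene content and mappability.

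As a share of all distal peaks, H3K9me3 made up 10.9% before weaning (54 peaks beside 443 active ones, 8.42 to 13.9) and 46.2% after weaning (160 beside 186, 41.1 to 51.5). On the rest of chromosome 18 the shares were 1.49% (1.15 to 1.93) and 7.76% (6.52 to 9.21), and over the whole lists 2.59% and 11.1%. For every H3K9me3 peak there were 6.26 H3K27ac peaks at the distal end before weaning and 1.06 after weaning. The rest of the chromosome had 53.3 and 11.1. By covered length in place of peak number, the distal H3K9me3 shares were 6.32% and 40.0%.

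The numbers changed with time in opposite directions for H3K9me3 and the acetylation marks. Distal H3K9me3 peaks rose from 54 to 160, a ratio of 2.96 (2.16 to 4.11), against 2.11 (1.52 to 2.95) on the rest of the chromosome and 1.73 over the whole list. The 2 intervals on chromosome 18 overlapped, and the difference between them was not tested. H3K27ac went from 338 to 169 (ratio 0.5, 0.413 to 0.603), next to 0.439 (0.411 to 0.468) on the rest of the chromosome. H3K9ac went from 96 to 15 (0.156, 0.0842 to 0.271), next to 0.122. RNA pol II went from 9 to 2 (0.222, 0.0234 to 1.07), next to 0.188. The distal end therefore followed the direction of each whole list. The pair of H3K9me3 libraries was sequenced on different lanes (lane 2 before weaning, lane 1 after it), so for this mark time cannot be told apart from lane. For RNA pol II, the text of the study gives the shorter list to the time before weaning, whereas the labels, which were followed here, give it to the time after weaning. The other assignment would turn the direction for RNA pol II.

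Peaks were then counted in bins of 500 kb, 18 at the distal end and 114 on the rest of the chromosome. The lowest, median and highest numbers of H3K9me3 peaks per distal bin were 0, 2 and 17 before weaning and 0, 7 and 26 after weaning. On the rest of the chromosome the median bin had 0 at both time points and the highest had 10 and 19. H3K9me3 had at least 1 peak in 12 of the 18 distal bins before and 16 after weaning, compared with 26 and 38 of the 114 others and with 15.6% and 28.4% of the bins genome-wide. H3K27ac had a median of 13.5 peaks per distal bin before weaning and 5 after weaning, with ranges of 1 to 55 and 0 to 32.

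**Figure D2:**
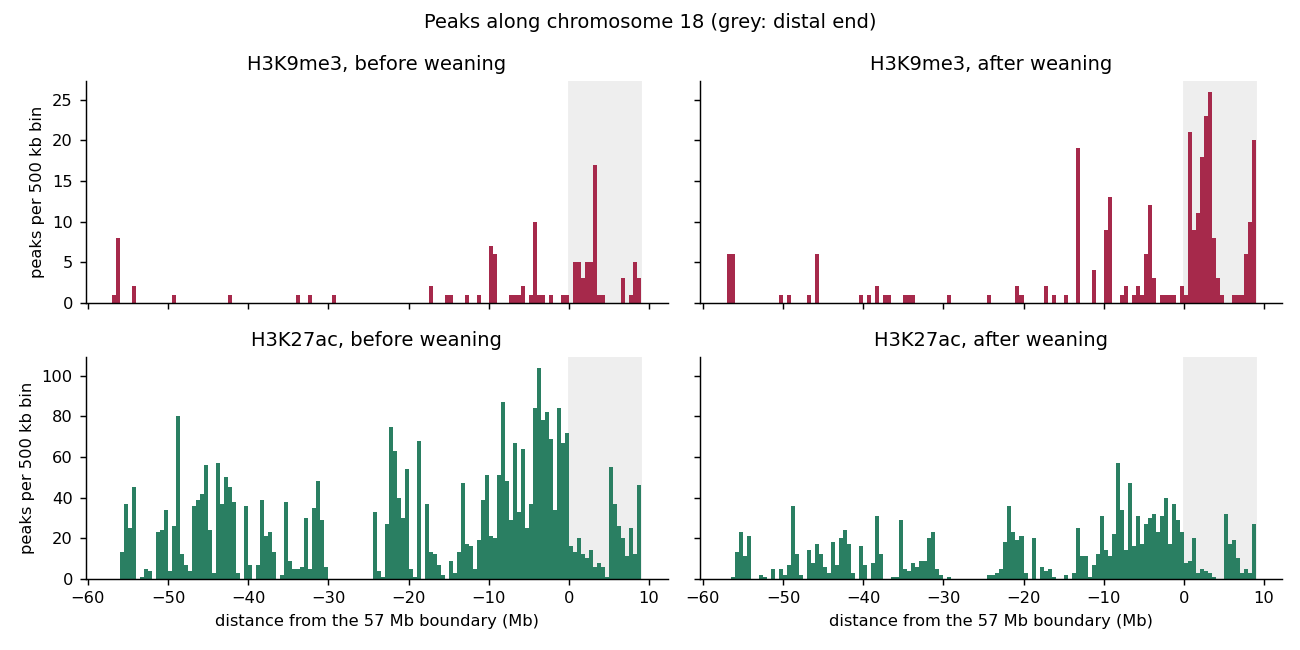
Peaks per 500 kb bin along the whole of chromosome 18 for H3K9me3 (upper) and H3K27ac (lower), before (left) and after weaning (right), by distance from the 57 Mb boundary in Mb, with the distal end in grey. H3K9me3 bars crowd into the grey zone, with up to 17 peaks before and 26 after weaning, and H3K27ac bars drop at its left edge.

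The boundary at 57 Mb was a step down for H3K27ac at both time points, and for H3K9ac and RNA pol II before weaning. H3K27ac had 72 peaks before and 23 after weaning in the last bin before it, from 56.5 to 57 Mb, and 16 and 8 in the next bin. H3K9ac had 22 and 0 peaks in the last bin before it and 3 and 1 in the next. RNA pol II had 7 and 0 before it, then 0 and 0, so neither of these marks stepped down after weaning. H3K9me3 showed no such step at the boundary itself, with 1 and 2 peaks before it and 0 and 1 after it. It began in the following bin, from 57.5 Mb, with 5 and 21.

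After weaning H3K9me3 peaks outnumbered H3K27ac peaks in 10 of the 18 distal bins (55.6%), against 6 of the 114 other bins of the chromosome (5.26%) and 10.1% of 5331 bins genome-wide. Before weaning this was so in 1 distal bin, 4 of the 114 others and 3.92% of the bins genome-wide. H3K9me3 outnumbered the 3 active marks together in the same 10 bins after weaning (5 of the 114 others, 9.27% genome-wide) and in 1 before weaning (3 of 114, 3.62%). It outnumbered H3K9ac in 6 distal bins before weaning (5 of 114, 8.05%) and 14 after weaning (29 of 114, 23.2%). It outnumbered RNA pol II in 12 before weaning (15 of 114, 12.6%) and 16 after weaning (33 of 114, 27.2%). H3K9me3 peaks without any H3K27ac peak were found in 0 distal bins before and 2 after weaning. On the rest of the chromosome there were 4 such bins of 114 (3.51%) at each time point, and the genome-wide share was not counted. Among the distal bins with H3K9me3, all before weaning and most after weaning thus also held H3K27ac.

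By these counts the distal end fell into 3 stretches, a division made after the counts had been seen. The first, from 57 to 62 Mb, was the H3K9me3-rich one. Its 10 bins held 42 H3K9me3 peaks before and 121 after weaning, 77.8% and 75.6% of the distal peaks of the mark. They held 106 and 53 H3K27ac peaks, 33 and 9 H3K9ac peaks and 1 and 2 RNA pol II peaks. Per Mb that was 8.40 and 24.2 peaks for H3K9me3, and 21.2 and 10.6 for H3K27ac. H3K9me3 was thus the less dense of the 2 marks before weaning and the denser after weaning.

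The second stretch, from 62 to 63.5 Mb, was an active island. Its 3 bins held 118 H3K27ac peaks before and 68 after weaning, or 78.7 and 45.3 per Mb, above the average of 52.4 and 23.0 per Mb on the rest of chromosome 18. They held 34 and 4 H3K9ac peaks, and 6 of the 9 RNA pol II peaks before weaning. H3K9me3 had 0 peaks there before weaning and 1 after weaning. A count of 0 allows up to 3 peaks.

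The last stretch, from 63.5 Mb to the end, carried both kinds of marks. Its 5 bins held 12 and 38 H3K9me3 peaks, 114 and 48 H3K27ac peaks, 29 and 2 H3K9ac peaks and 2 and 0 RNA pol II peaks. Within it the last bin stood out, with 20 H3K9me3 peaks after weaning (3 before) next to 27 H3K27ac peaks (46 before) and 15 H3K9ac peaks before weaning.

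**Figure D3:**
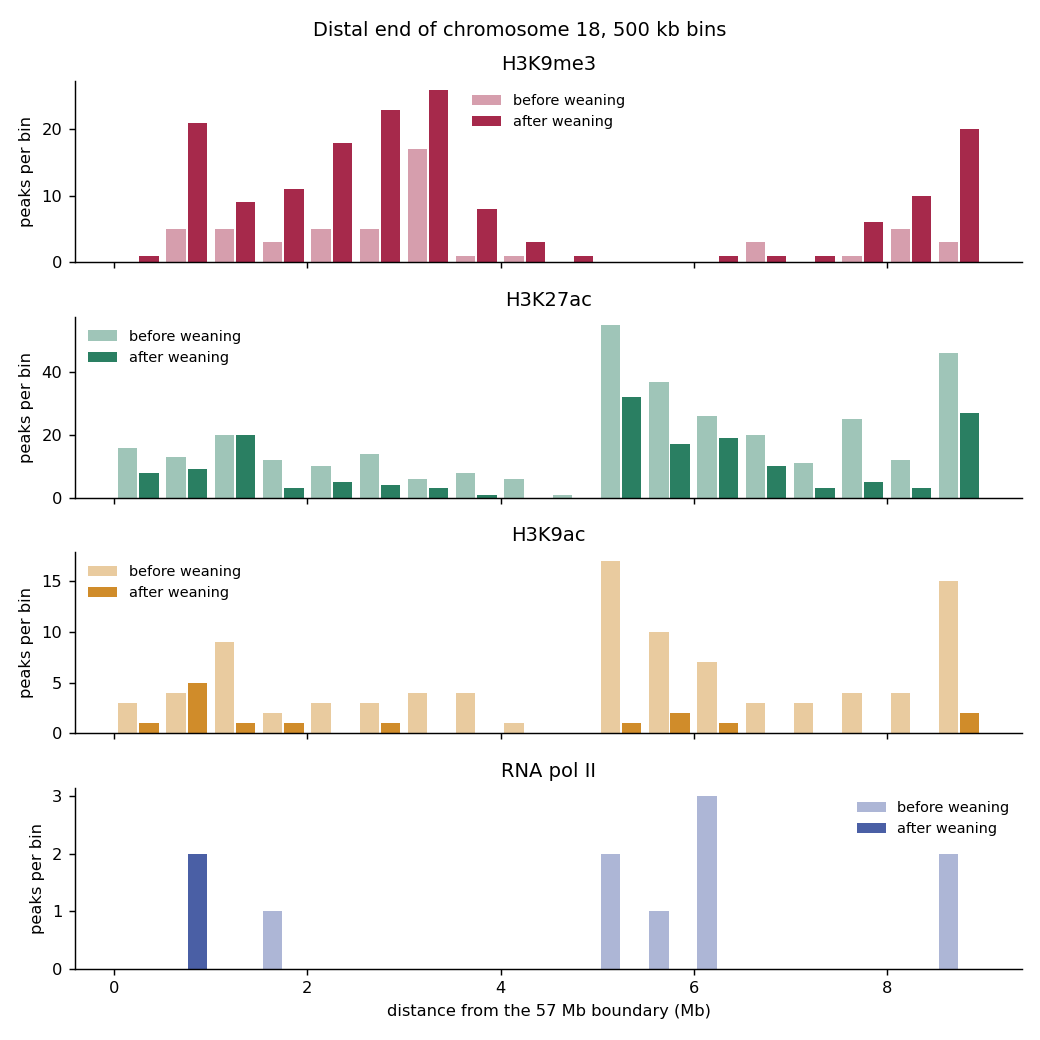
Peaks per 500 kb bin at the distal end for the 4 targets, by distance from the 57 Mb boundary in Mb, with pale bars before and dark bars after weaning. H3K9me3 is highest between 0.5 and 3.5 Mb and after weaning again in the last 1 Mb, and is almost absent between 5 and 6.5 Mb, where H3K27ac has its highest bin at both time points (55 and 32) and H3K9ac its highest before weaning (17).

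The bin richest in H3K9me3 at both time points ran from 60.0 to 60.5 Mb. It had 17 H3K9me3 peaks before and 26 after weaning, beside 6 and 3 of H3K27ac, 4 and 0 of H3K9ac and none of RNA pol II. Of the 5331 bins genome-wide, 15 had more H3K9me3 peaks before and 13 after weaning. The bin from 59.5 to 60.0 Mb went from 5 to 23 H3K9me3 peaks while H3K27ac went from 14 to 4. The bin from 59.0 to 59.5 Mb went from 5 to 18 while H3K27ac went from 10 to 5. The bin richest in H3K27ac ran from 62 to 62.5 Mb, with 55 and 32 peaks of that mark, 17 and 1 of H3K9ac, 2 and 0 of RNA pol II, and no H3K9me3 peak at either time point. Between these zones, the bin from 61.5 to 62 Mb was nearly empty of all marks, with 1 H3K27ac peak before and 1 H3K9me3 peak after weaning.

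For H3K9me3 and the acetylations, the direction over time was shared by most distal bins. H3K9me3 had more peaks after weaning in 15 of the 18 distal bins, fewer in 1 (63.5 to 64.0 Mb, from 3 to 1) and none at either time in 2. Elsewhere on the chromosome it had more in 29 bins, fewer in 9 and an equal number, mostly 0, in 76 of the 114, and genome-wide more in 23.0%. H3K27ac had fewer in 17 (84 of the 114 others, 67.1% genome-wide) and an equal number, 20, in the bin from 58 Mb. RNA pol II had fewer in 5 distal bins (29 of 114, 17.6%), more in 1 and none at either time in 12. H3K9ac had fewer in 16 bins (79 of 114, 49.9%) and more in 1, the bin from 57.5 Mb, which went from 4 to 5. That bin also held both RNA pol II peaks after weaning (none before) and the rise in H3K9me3 from 5 to 21, while H3K27ac went from 13 to 9. Across the 18 bins, counts before and after weaning correlated with a Pearson r of 0.92 for H3K27ac and 0.77 for H3K9me3 (Spearman 0.91 and 0.88). H3K9me3 and H3K27ac correlated with r = -0.29 before and -0.13 after weaning. Over the 114 other bins those values were 0.13 and 0.17. With H3K9ac the distal r was -0.11 before and 0.30 after weaning, and with RNA pol II -0.28 and 0.34. The values after weaning rest on 15 H3K9ac and 2 RNA pol II peaks. Bins share libraries, gene density and mappability, so these are descriptions.

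Individual H3K9me3 peaks were mostly not at the same place at both time points. Of the bins, 12 held the mark before weaning and 16 after weaning. Of the 54 distal peaks before weaning, 16 (29.6%, 19.1 to 42.8) touched a peak after weaning by at least 1 bp, against 53.6% of the whole list and 35.7% on the rest of chromosome 18. Of the 160 after weaning, 15 (9.38%, 5.76 to 14.9) touched one before weaning, against 30.0% of the whole list and 16.1% (10.6 to 23.8) on the rest of the chromosome. Of the 54 distal peaks before weaning, 41 (75.9%, 63.1 to 85.4) lay within 10 kb of a peak after weaning, next to 69.3% of the whole list and 58.9% (45.9 to 70.8) on the rest of the chromosome. Of the 160 after weaning, 71 (44.4%, 36.9 to 52.1) lay within 10 kb of one before weaning, against 25.4% (18.4 to 34.0) on the rest of the chromosome and 45.9% of the whole list. The median distance from a distal peak after weaning to the nearest before weaning was 14.3 kb (8.57 to 22.5), compared with 102 kb (42.0 to 227) on the rest of the chromosome. A denser list shortens such distances by itself.

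**Figure D4:**
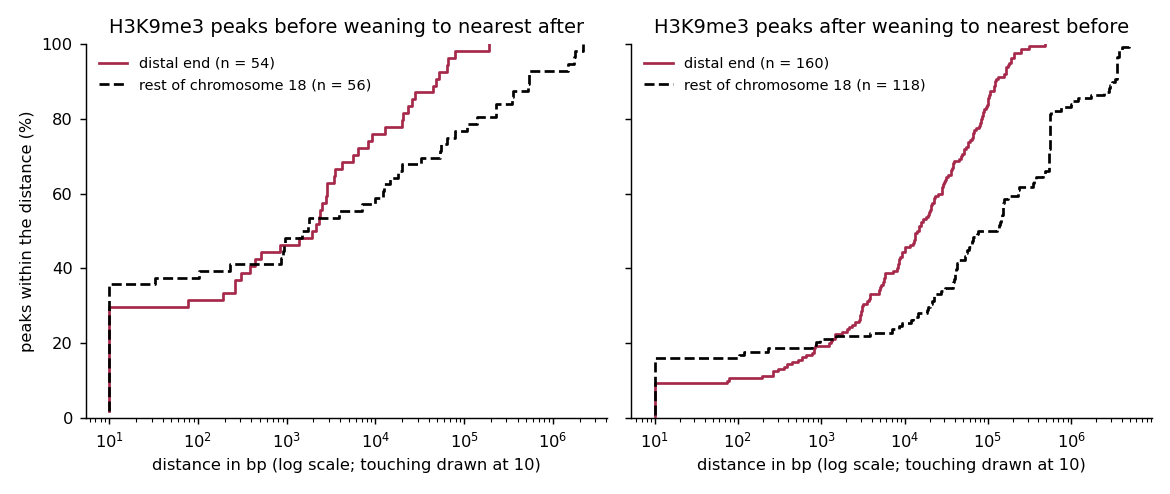
Cumulative share of H3K9me3 peaks by distance in bp (log axis) to the nearest H3K9me3 peak of the other time point, with touching peaks drawn at 10 bp. The solid line is the distal end, the broken line the rest of chromosome 18. In the right panel 9.38% of the distal peaks touch a peak before weaning and 44.4% lie within 10 kb of one.

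Distal H3K9me3 peaks were narrow. Their median width was 228.5 bp before weaning (214 to 249) and 224.5 bp after weaning (213 to 241), below the 275.5 and 247 bp of the whole lists. The lowest width in the lists, 200 bp, was found for 11 of the 54 (20.4%, 11.8 to 32.9) and 55 of the 160 (34.4%, 27.5 to 42.0), compared with 13.4% and 23.2% of the whole lists. The 15 peaks after weaning that touched one before weaning had a median of 296 bp (209 to 503) and the other 145 one of 223 bp (210 to 236). The medians on the rest of chromosome 18 were 246.5 and 235.5 bp, with intervals that overlapped the distal ones. Without peaks of 200 bp, the density ratio of H3K9me3 was 5.92 before and 7.74 after weaning.

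Many of these narrow peaks came in runs. When neighbours no more than 10 kb apart were joined, 16 runs of 3 or more H3K9me3 peaks were found at the distal end after weaning, with 73 of the 160 peaks (45.6%), and 3 runs with 12 of the 54 (22.2%) before weaning. Runs were not particular to the distal end. The rest of the chromosome had 48 of 118 peaks (40.7%) in 8 runs after weaning, the largest of 19 peaks. Before weaning it had 16 of 56 (28.6%) in 3 runs, the largest of 8 peaks. Of the 16 distal runs after weaning, 10 held no peak of an active mark at either time point and 6 held at least 1. Runs elsewhere were not checked for active peaks, so there is no share to set beside these counts. The largest distal run after weaning had 12 peaks over 31.8 kb at chr18:60067851-60099657, and 8 peaks before weaning fell inside it. No peak of an active mark lay in that run at either time point. The 3 runs before weaning all lay in the same bin and likewise held no active peak of either time point. At chr18:57618452-57631156, 6 peaks after weaning ran over 12.7 kb where 1 peak had been before weaning. Its first peak, at chr18:57618452-57619494, was the widest distal H3K9me3 peak after weaning (1043 bp), and it touched an H3K9me3 peak before weaning and no active peak. At chr18:59643500-59661925, 4 peaks after weaning lay where no mark had a peak before weaning.

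By the time points of the labels and an overlap of 1 bp, distal H3K9me3 peaks did not touch peaks of the active marks, with 2 exceptions. Before weaning, none of the 54 distal H3K9me3 peaks touched a peak of H3K9ac, H3K27ac or RNA pol II, which allows a share of up to 5.56% each (3 counts of the total). Over the whole list 5.19%, 2.28% and 17.2% did. On the rest of chromosome 18, 5, 2 and 8 of the 56 did. After weaning 2 of the 160 touched H3K9ac (1.25%, 0.343 to 4.44), and none touched H3K27ac or RNA pol II, which allows up to 1.88% by the same limit. By the same 1 bp rule, 6.76% of the whole list after weaning touched H3K9ac, 5.61% H3K27ac and 14.0% RNA pol II. On the rest of the chromosome 7, 7 and 12 of the 118 did, in the same order. The Wilson interval of H3K27ac there (2.90 to 11.7) lay above the distal one (0 to 2.34). For RNA pol II, whose distal list had 2 peaks after weaning, the distal share had to be near 0 and was not compared. When peaks were extended by 1 kb, 2.50% of the distal H3K9me3 peaks met H3K27ac and 3.12% H3K9ac after weaning. Before weaning 3.70% and 1.85% did. With this extension the rest of the chromosome had 16.1% and 12.7% after weaning, and 5.36% and 17.9% before weaning.

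The shares were also taken over the active peaks. None of the 338 distal H3K27ac peaks before weaning and none of the 169 after weaning touched H3K9me3, against 0.0741% and 0.821% of the whole lists, so a share of that size could not have been seen at this number. None of the 96 H3K9ac peaks before weaning did (whole list 0.911%), and 2 of the 15 after weaning did (13.3%, 3.74 to 37.9), next to 9.09% on the rest of the chromosome and 14.2% of the whole list. None of the 9 and 2 RNA pol II peaks did, against 21.7% and 86.3% of the whole lists. The large genome-wide share after weaning thus had no counterpart among the 2 distal peaks, a number too small to compare.

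Both exceptions lay in the bin from 57.5 Mb. The H3K9ac peak after weaning at chr18:57675891-57676212 began at the same base as an H3K9me3 peak after weaning of 452 bp and lay inside it. The H3K9ac peak at chr18:57714446-57714767 shared 217 bp with an H3K9me3 peak of 249 bp. Across time points there was 1 more contact, in the same bin. The wider of the 2 distal RNA pol II peaks after weaning, at chr18:57695208-57695433, lay inside the widest distal H3K9me3 peak before weaning, at chr18:57694665-57695433 (769 bp), and ended at the same base. If the RNA pol II lists were assigned to the time points as in the text of the study, this contact would fall within 1 time point and be a further exception. The other RNA pol II peak was at chr18:57698716-57698915. After merging all overlapping peaks, 3 of 554 distal regions (0.542%) held H3K9me3 with an active mark, 195 (35.2%) H3K9me3 alone and 356 (64.3%) active marks alone. On the rest of the chromosome 18 of 3369 regions (0.534%) were mixed, 136 (4.04%) held H3K9me3 alone and 3215 (95.4%) active marks alone. Among the regions that held H3K9me3, 3 of 198 distal ones (1.52%, 0.517 to 4.36) and 18 of 154 others (11.7%, 7.52 to 17.7) also held an active mark. With peaks within 1 kb merged, 9 of 362 distal regions were mixed. Within the first 5 Mb of the distal end, 146 of 263 regions (55.5%) held H3K9me3 alone and 3 were mixed. In the active island 1 of 127 regions held H3K9me3 alone and 0 were mixed.

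Distances to the nearest active peak follow the number of peaks in each list and are given as a description. The median distal H3K9me3 peak lay 21.0 kb (11.9 to 27.6) from the nearest H3K27ac peak before weaning and 34.8 kb (27.6 to 43.0) after weaning. These were close to the 17.6 and 33.2 kb on the rest of the chromosome, with overlapping intervals. With 9 and 2 RNA pol II peaks at the distal end, the nearest lay at a median of 871 kb before weaning (667 to 1127) and 2217 kb after weaning (1920 to 2394), against 53.1 and 649 kb on the rest of the chromosome. The distance to H3K9ac was 35.8 kb before weaning and 236 kb after weaning, against 13.6 and 257 kb on the rest of the chromosome. From the other side, the median distal H3K27ac peak lay 151 kb from H3K9me3 before and 86.5 kb after weaning, compared with 512 and 313 kb on the rest of the chromosome.

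The distal active peaks often overlapped one another. H3K27ac was touched by 92 of the 96 H3K9ac peaks before weaning (95.8%, whole list 90.0%) and by 12 of the 15 after weaning (80.0%, whole list 69.3%), compared with 92.7% and 80.5% on the rest of chromosome 18. All 9 RNA pol II peaks before weaning touched H3K27ac, and neither of the 2 after weaning did. Many H3K27ac peaks after weaning lay on peaks before weaning. Of the distal H3K27ac peaks after weaning 155 of 169 (91.7%, 86.6 to 95) touched a peak before weaning, against 76.9% of the whole list and 82.3% (80.1 to 84.3) on the rest of the chromosome. Of those before weaning 131 of 338 (38.8%, 33.7 to 44.0) were kept, against 27.9% and 31.5% (29.8 to 33.2). With a reciprocal overlap of 50% these shares were 37.3% (30.3 to 44.8) and 18.6% (14.8 to 23.1), next to 6.88% and 20.4% (11.8 to 32.9) for distal H3K9me3. For H3K9ac 12 of 15 after weaning were kept and 12 of 96 before weaning, with whole-list shares of 44.3% and 6.60%. No RNA pol II peak was kept in either direction, with whole-list shares of 19.3% before and 52.6% after weaning. Distal H3K27ac peaks before weaning were wider as deposited, with a median of 419.5 bp (383 to 459) against 350 bp (338 to 361) on the rest of the chromosome. With peaks within 1 kb merged the intervals overlapped, with 801 (707 to 919) against 732 bp (650 to 790). After weaning they were not, with 281 against 291 bp.

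The widest acetylation peaks at both time points, and the widest RNA pol II peak before weaning, lay in the active island. The widest H3K27ac peak before weaning, at chr18:62018331-62021210 (2880 bp), contained the widest after weaning, at chr18:62018400-62020165 (1766 bp), and touched H3K9ac before weaning. The widest H3K9ac peak before weaning, at chr18:62026934-62027622 (689 bp), lay a few kb further on and touched H3K27ac at both time points and H3K9ac after weaning. The widest H3K9ac peak after weaning was at chr18:63102203-63102724 (522 bp), and the widest RNA pol II peak before weaning at chr18:63388575-63388909 (335 bp). Both touched H3K9ac and H3K27ac before weaning. The widest RNA pol II peak after weaning was the one in the H3K9me3-rich stretch named above.

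The distal region shared by most libraries was inside the H3K9me3-rich stretch. At chr18:58688772-58690163 (1392 bp) H3K9ac and H3K27ac had peaks at both time points and RNA pol II before weaning, 5 libraries in all. The bin around it, from 58.5 Mb, held 3 H3K9me3 peaks before and 11 after weaning, and in all 12 and 3 of H3K27ac. The next 4 regions by number of libraries, each with 4, were at chr18:65979680-65981881, chr18:65744773-65746469, chr18:63388114-63389471 and chr18:57096124-57097394. The regions at 65744773 and 63388114 had H3K9ac and RNA pol II before weaning and H3K27ac at both times, and the other two had H3K9ac and H3K27ac at both times. None of the 5 regions held H3K9me3, and no distal region held peaks of all 4 targets. Elsewhere on the chromosome 7 of 3369 did (0.208%), a share too small to be told from 0 among 554 distal regions.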

How the data were processed

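Per the labels and the methods of the study, the authors removed reads of 75 nt that failed the quality filter, aligned the others with BWA to UMD3.1.1, kept unique alignments with fewer than 2 mismatches, and called peaks with MACS2 against 1 input library. The deposited files give chromosome, start and end of each peak, without height or significance. Sequencing depth was not analysed here, so its effect on the number of peaks is unknown. Unique alignment drops reads from near-identical copies, as in tandem gene clusters, and its part in the counts was not tested.

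Groups came from the labels. Positions were read as 1-based with both ends included. Python 3.11.15, NumPy 2.4.6, SciPy 1.17.1 and pandas 2.3.3 were used. A peak belonged to the bin of its start. The distal end measured 8.99 Mb, up to the highest peak end, and the rest 57 Mb. Overlap required 1 bp. Intervals were Wilson for shares, exact binomial for ratios and order-statistic for medians, at 95%. Overlap, merging and density code was tested on simulated data with known answers. Named regions were the widest peak of each list, the 5 regions with most libraries and the richest bins. Runs, stretches, windows, distances and contacts were examined after the counts had been seen. The members and lists were chosen with earlier results of these data known. Alternatives were merged peaks, peaks above 200 bp, other boundaries, bin sizes and overlap rules, covered length and a genome-wide comparison.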

Additional observations from a re-analysis of the deposited data

How the results depend on the processing

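The excess of H3K9me3 at the distal end kept its direction under every alternative run, with density ratios of 4.43 to 6.75 before and 7.15 to 11.8 after weaning. Against all chromosomes outside the distal end, H3K27ac reversed to 1.35 and 1.64, H3K9ac before weaning came to 1.98 and H3K9me3 after weaning to 11.8. That comparison gave H3K9me3 shares of 2.54% and 10.8%, after to before ratios of 0.41 (H3K27ac) and 0.36 (RNA pol II), and 21.8% of RNA pol II peaks before weaning touching H3K9me3. With the boundary at 56 Mb, which adds bins rich in active marks, the ratios were 1.28 (H3K9ac before), 0.939 and 0.984 (H3K27ac) and 1.61 (RNA pol II before), and the distal H3K9me3 shares 8.13% and 40.3%. With the boundary at 58 Mb, or without the bin with most peaks, no RNA pol II peak after weaning was left, so its density ratio and its after to before ratio were 0. H3K27ac before weaning was 0.636 without its richest bin.

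Merging peaks within 1 kb gave H3K9me3 shares before weaning of 15.7% distally and 2.25% on the rest of the chromosome, where H3K9ac and H3K27ac had after to before ratios of 0.158 and 0.555. Median widths became 801 (distal) and 732 bp for H3K27ac before weaning, with overlapping intervals, 440 and 378 bp after weaning, and 309 bp for H3K9ac before weaning on the rest of the chromosome. There were 362 merged regions, 9 of them with H3K9me3 and an active mark. Without peaks of 200 bp, the H3K9me3 shares after weaning were 38.2% and 6.23%. The median H3K9me3 widths after weaning were then 260 and 301 bp, and those on the rest of the chromosome 282 (H3K9ac before), 364 and 305 bp (H3K27ac). By covered bases the H3K9me3 shares were 6.32% and 0.971% before and 40% distally after weaning, and the H3K27ac ratios 0.327 and 0.317.

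Extending peaks by 1 kb gave overlaps on the rest of the chromosome of 30.4% (H3K9me3 on RNA pol II before), 1.3% (H3K27ac on H3K9me3 after), 12.7% and 16.1% (H3K9me3 on H3K9ac and H3K27ac after), and 2.5% for distal H3K9me3 on H3K27ac after weaning. Kept shares rose to 62.4% (H3K27ac before) and to 50% and 23.1% (H3K9me3). A reciprocal overlap of 50% lowered them to 53.3% (H3K9ac after) and to 18.6% and 37.3% (H3K27ac). The other 358 values moved by less than their counting intervals or, for counts, by less than 1.5 times. With the boundary at 58 Mb no width or overlap of RNA pol II after weaning could be given, and the gene annotation planned for the peaks was not run, since gene positions on this build were not used here. No paired analysis was possible because each target had 1 library per time point. Peak lists without height cannot show whether peaks strengthened, and lists of 2 to 15 peaks (RNA pol II, H3K9ac after weaning) limit what could be detected.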
